A study of Homo sapiens with 8 samples.

Results

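Solute carriers (SLC) are membrane proteins that move ions, nutrients, metabolites, metals and vitamins across the plasma membrane or across the membranes of organelles. They are grouped into numbered families by sequence and substrate. The members described here were all probes with a deposited value whose gene symbol starts with SLC and a number. They comprised 201 probes for 156 genes of 44 families, out of 16060 probes for 8756 named genes with values in every channel. Of these, 4 genes with 6 probes carry such a symbol but encode no carrier themselves (SLC2A4RG, SLC4A1AP, SLC6A10P and SLC7A6OS), which left 152 transporter genes.

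The RNA came from KM-H2, a Hodgkin lymphoma cell line. Cells carried either the empty retroviral vector pMSCV-PIG (EV) or a miR-155 sponge (miR-155-sp), and GFP+ cells had been sorted. Total RNA (T) and RNA immunoprecipitated with an antibody against Argonaute 2 (Ago2-IP, IP) were hybridized together on 2-color arrays. Both populations share the parental line and its endogenous miR-155. They are pools of transduced cells and differ in the construct.

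Each of the 4 RNA samples was labelled once with Cy3 and once with Cy5. These 2 labellings are technical, so a group is 1 sample and there is no replicate check of any difference. No test was possible. The ratio IP/T is therefore given with its values in both dye orientations, first that with IP in Cy5 (T in Cy3), then that with the dyes exchanged. All IP/T values and changes are on the log2 scale unless called a fold. A log2 IP/T of 1 is a 2-fold excess in the IP and is called enriched here, while -1 or less is called depleted.

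In mammalian cells Ago2 is loaded with a miRNA, which pairs with sites that lie mostly in the 3′UTRs of mRNAs. Association of an mRNA with Ago2 is thus used as a measure of targeting by the sum of all miRNAs in a cell. MiR-155 is abundant in Hodgkin lymphoma cells, and a sponge is a transcript with repeated binding sites that captures it. SLC25 proteins are carriers of the mitochondrial inner membrane, with a few members elsewhere (SLC25A17 in peroxisomes, SLC25A46 in the outer mitochondrial membrane). SLC35 proteins import nucleotide sugars into the Golgi apparatus and endoplasmic reticulum. Families such as SLC2, SLC7 and SLC16 bring glucose, amino acids and monocarboxylates across the plasma membrane.

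The miRNA that the sponge is meant to capture is shown because the comparison of the populations rests on it. Both mature strands are given as in RefSeq (GRCh38.p14), 5′ to 3′, with the seed, bases 2 to 8, in capitals.
hsa-miR-155-5p: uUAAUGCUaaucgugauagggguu
hsa-miR-155-3p: cUCCUACAuauuagcauuaaca
The 5p strand lies at chr21:25573983-25574006 and the 3p strand at chr21:25574022-25574043, both on the plus strand. A site fully paired with the 5p seed reads AGCAUUA. Sites for it were not searched in the carrier mRNAs.

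On the 4 arrays, which came from 1 slide, between 58.9% and 61.9% of the 43376 gene spots were well above background in Cy3 channels, and between 38.8% and 43.4% in Cy5 channels. No gene spot was saturated. The number of arrays limits the precision. Among markers of the cell type, 5 of 6 Hodgkin lymphoma genes (TNFRSF8, CCL17, IRF4, TRAF1 and FSCN1) were well above background in all 8 channels, while CCL22 was so in none. Of the B-cell genes CD79A was above background in 8 channels, and CD79B and PAX5 in none. None of the 3 CD3 genes and neither epithelial gene reached 6 channels, and of the monocyte markers CD14 reached 6 and LYZ none.

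The array holds 510 probes for 359 SLC genes. A value was available for 43.5% of these genes, compared to 52.9% of all named genes on the array. Of the 309 probes without a deposited value, 159 were well above background in no channel, 65 in 1 to 3 channels and 83 in 4 to 7. Of the 201 member probes 169 were above background in all 8 channels, 19 in 7 and 13 in 6.

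Mitochondrial carriers were measured more often than those of the cell surface. Values were available for 32 of 43 SLC25 genes (74.4%), for 44 of 79 genes assigned to intracellular membranes (55.7%) and for 58 of 199 genes assigned to the plasma membrane (29.1%). Among the families poorly represented were SLC22, the organic ion carriers (4 of 19 genes), SLC16, the monocarboxylate carriers (2 of 14) and SLC13, the sulfate and dicarboxylate carriers (0 of 5). Both sodium-phosphate carriers of SLC20 and both copper carriers of SLC31 had a value. The lactate exporter SLC16A3, the cystine carrier SLC7A11, the iron exporter SLC40A1 and the testis form of the ADP/ATP carrier, SLC25A31, had none and are not described further.

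The first comparison addresses which carrier mRNAs were associated with Ago2 in EV cells. Of the 201 member probes 40 (19.9%), for 32 genes, were enriched at least 2-fold, compared to 15.1% of all 16060 probes. Only 10 member probes (4.98%), each for another gene, were depleted at least 2-fold, compared to 12.9% of all probes. In both dye orientations separately, 33 of the 40 (16.4% of the members) and 6 of the 10 (2.99%) passed. Of all probes 12.9% were enriched and 7.90% depleted in both orientations. The median log2 IP/T of the members was -0.05, and that of all probes -0.25. The orientations differed by a median of 0.304 for members and 0.316 for all probes.

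The excess of enriched over depleted carriers was present in bright and dim probes. Among the 169 member probes above background in 8 channels 17.2% were enriched and 4.73% depleted. Of all 13435 such probes 1702 were enriched and 1606 depleted. Among the 32 dimmer members 34.4% were enriched and 6.25% depleted, with 27.8% and 17.6% for all such probes. The excess over all probes was smaller at 4-fold and absent at 8-fold. A 4-fold enrichment was found for 14 members (6.97%) and for 6.36% of all probes, and an 8-fold enrichment for 3 members (1.49%) and for 2.40% of all probes.

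The counts depended on how the signals were scaled. With one common median for all channels there were 34 enriched and 16 depleted members (all probes 14.0% and 15.3%), and with normexp background correction, loess and Aquantile 25 and 1 (all probes 9.34% and 2.36%). The last setting moved the median of all probes from -0.25 to -0.02, and that of the members from -0.05 to 0.09.

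The highest IP/T among probes above background in 8 channels was that of SLC19A2, a thiamine transporter of the plasma membrane. Its log2 signal in EV total RNA was 8.21 (Cy3) and 8.40 (Cy5), and in the EV IP it was 11.22 and 11.21. The resulting log2 IP/T was 2.92 (3.01 and 2.82 in the orientations), a 7.54-fold excess. Both labellings of the IP lay above both of the total RNA by a similar amount.

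SLC4A7, a sodium-bicarbonate cotransporter that loads cells with base, was represented by 3 probes and all were enriched. Its probe A_23_P132468 had log2 signals of 8.61 and 8.17 in EV total RNA and 11.27 and 11.33 in the EV IP, and a log2 IP/T of 2.91. The others had 1.85 and 3.87, the last from a probe above background in 6 channels. No other member gene had 3 enriched probes.

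SLC48A1, an endosomal and lysosomal heme transporter, followed with 2.85. Its signals were 11.13 and 11.10 in EV total RNA and 13.93 and 14.01 in the EV IP, and its orientations (2.88 and 2.83) were among the closest of these high values. The monocarboxylate carrier family member SLC16A9 had 2.57 (2.47 and 2.68), from 8.97 and 8.88 in total RNA to 11.55 and 11.44 in the IP. The myo-inositol carrier SLC2A13 had 2.53 (2.72 and 2.34).

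The next values were those of 2 mitochondrial carriers. SLC25A28 (mitoferrin-2, an iron importer of mitochondria) had 2.41 and 2.26 by its 2 probes, and SLC25A44, a carrier of branched-chain amino acids, had 2.33. The 12 highest probes were completed by SLC35F5 (2.08), SLC37A3 (2.02), the iron and metal carrier SLC11A2 (2.00) and the copper carrier SLC31A2 (1.98). Among dimmer probes the glucose transporter SLC2A3 (GLUT3) reached 3.63 and the lysosomal SLC49A4 reached 3.17.

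SLC2A3 depended on the background correction. Its probe was above background in 6 channels, with 5.39 and 5.46 in EV total RNA and 9.01 and 9.09 in the EV IP. With normexp, loess and Aquantile its log2 IP/T was 0.85, below the threshold. The 12 highest probes among those above background in 8 channels were enriched under all 4 scalings. The 4 scalings were a common median, normexp with loess and Aquantile, normexp with quantile normalization, and the deposited log2 values. The deposited values are nearly those used here (median difference 0.00056), so a pass under them adds little.

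**Figure D1:**
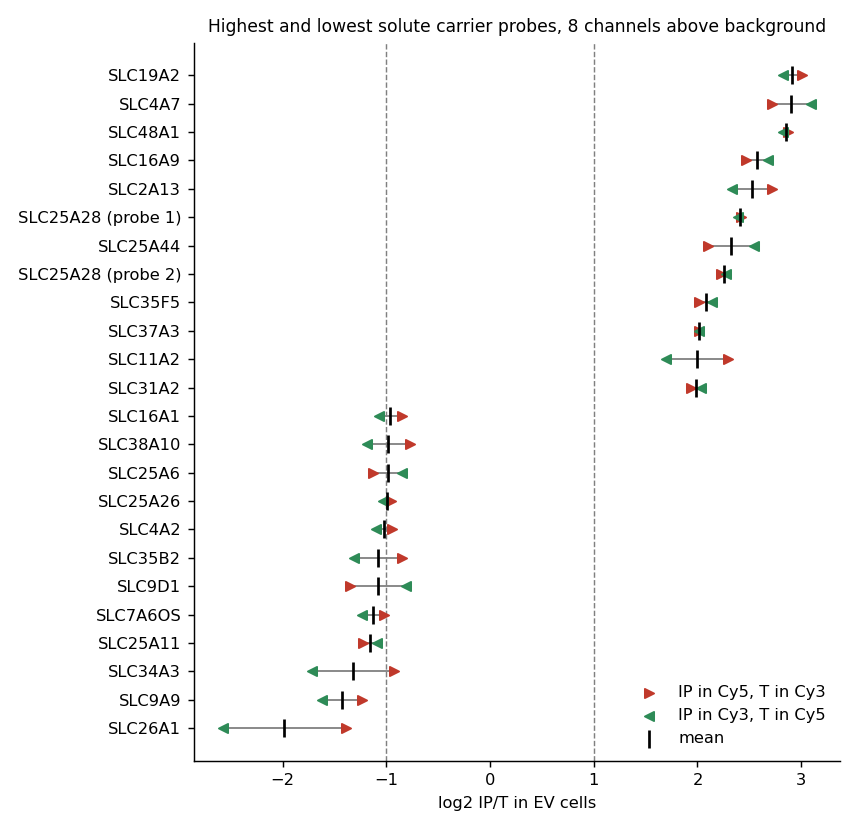
Log2 IP/T in EV cells (x axis) of the 12 highest and 12 lowest member probes among those above background in 8 channels (y axis, by gene). Triangles are the single dye orientations, ticks their mean and dashed lines 2-fold. All 12 high probes lie beyond 2-fold in both orientations, whereas SLC26A1 (-1.39 and -2.57) shows the widest gap between orientations.

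The lowest value was that of SLC26A1, a sulfate and oxalate exchanger. Its signals in EV total RNA were 10.92 and 11.49 and in the EV IP 8.92 and 9.53. The log2 IP/T was -1.98, with -1.39 and -2.57 in the orientations. Of the depleted probes above background in 8 channels it was the single one past 2-fold under all 4 scalings.

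SLC9A9, an endosomal sodium/proton exchanger, had -1.43 and SLC34A3, a sodium-phosphate cotransporter, had -1.33. They were followed by SLC25A11, the mitochondrial oxoglutarate carrier (-1.16), by SLC7A6OS (-1.13), SLC9D1 (-1.08, also known as TMCO3), SLC35B2, which imports the sulfate donor PAPS into the Golgi (-1.08), and the anion exchanger SLC4A2 (-1.02). The dimmer probes SLC22A12, a urate transporter (-1.15), and SLC2A6, a lysosomal member of the glucose transporter family (-1.10), were depleted as well. With both normexp settings each of SLC9A9, SLC34A3, SLC25A11, SLC7A6OS, SLC9D1, SLC35B2 and SLC4A2 was less than 2-fold depleted.

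Enriched and depleted genes were found together in 5 of 44 families (SLC2, SLC4, SLC9, SLC25 and SLC35). Among these were SLC25 with 42 probes and SLC35 with 21, the most of any family. Of the 44 families 21 held an enriched probe, 8 a depleted probe and 20 neither. The widest range was that of SLC4, from -1.02 (SLC4A2) to 3.87 (SLC4A7). The counts of enriched and depleted probes in the classes described next stand against 15.1% and 12.9% of all probes, and with few probes per class they are given as a description. Members named from here on that the rule for named genes does not cover were chosen after their values were seen.

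Of the 42 probes for 32 SLC25 genes 8 were enriched and 1 depleted, with a median of 0.09. Enriched were SLC25A28 and SLC25A44 (above), SLC25A36, a pyrimidine nucleotide carrier (1.93), both probes of the ATP-Mg/phosphate carrier SLC25A25 (1.22 and 1.71), 1 of 2 probes of the aspartate/glutamate carrier SLC25A13 (1.03 and 0.65) and SLC25A16 (1.02). The probe of SLC25A25 with 1.71 and that of SLC25A16 were above background in 6 channels only. The folate carrier SLC25A32 (0.93), the phosphate carrier SLC25A3 (0.66) and the glutamate carrier SLC25A22 (0.66) lay below the threshold. SLC25 thus spread over both sides, with 19 probes above 0 and 19 below 0 in both orientations (45.2% each). Of all probes 32.8% lay above 0 and 52.6% below 0 in both.

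The 2 mitoferrins differed. SLC25A37 (mitoferrin-1) had -0.31, compared to 2.41 and 2.26 for SLC25A28. Both calcium-regulated aspartate/glutamate carriers lay above 0, SLC25A12 with 0.73 and 0.71. The glutathione carriers SLC25A40 (0.74, in 7 channels) and SLC25A39 (-0.64) lay on opposite sides.

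The measured ADP/ATP carriers, which exchange the nucleotides of oxidative phosphorylation, lay below 0 in both orientations. The 4 probes of SLC25A5 had -0.33, -0.33, -0.34 and -0.43, SLC25A4 had -0.79 and SLC25A6 had -0.99. Other carriers of core metabolites on this side were the citrate carrier SLC25A1 (-0.63), the dicarboxylate carrier SLC25A10 (-0.49), the carnitine/acylcarnitine carrier SLC25A20 (-0.82), the S-adenosylmethionine carrier SLC25A26 (-0.99) and the NAD+ carrier SLC25A51 (-0.72).

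Of the 25 probes of families assigned to metals or heme 6 were enriched and none was depleted, compared to 15.1% and 12.9% of all probes. SLC49A4 was counted here by its family only, and its own substrate was not checked. Besides SLC48A1, SLC49A4, SLC31A2 and both probes of SLC11A2 (2.00 and 1.95), SLC30A7, which loads the Golgi with zinc, had 2.00. The probe of SLC30A7 was above background in fewer than 8 channels. SLC31A1, the high-affinity copper importer of the plasma membrane, had 0.00, -0.20 and -0.41 by its 3 probes, while SLC31A2, its paralog in endosomes and lysosomes, had 1.98. The 11 probes of the zinc importer family SLC39 lay between -0.59 (SLC39A14) and 0.55 (SLC39A4), and none passed in either direction.

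Among the 8 probes of the hexose carriers 3 were enriched and 1 depleted. SLC2A1 (GLUT1, the widespread glucose transporter) had -0.80 in a probe above background in 7 channels, with -1.34 and -0.26 in the orientations. The fructose carrier SLC2A5 had -0.94. SLC2A3 and SLC2A13, described above, were the highest of the family. Of the monocarboxylate carriers, SLC16A1 (MCT1, a lactate and pyruvate carrier) had -0.96, compared to 2.57 for SLC16A9.

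Carriers for sugar derivatives showed a similar range. SLC37A3, of the sugar-phosphate family, was enriched by both probes (2.02 and 1.88), while SLC37A4, which imports glucose 6-phosphate into the endoplasmic reticulum, had 0.07 and SLC37A1 had 0.09. Of the 21 probes of SLC35 2 were enriched, SLC35F5 (2.08) and 1 of 2 probes of the CMP-sialic acid carrier SLC35A1 (1.30 and 0.75). SLC35B2 was depleted. The median of SLC35 was -0.29, close to that of all probes. In both orientations 11 of its probes (52.4%) lay below 0 and 5 (23.8%) above, compared to 52.6% and 32.8% of all probes.

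Of 24 probes for amino acid carriers 3 were enriched and none was depleted. These were SLC7A6 (1.85, with 1.70 and 2.00), which exchanges cationic for neutral amino acids, the cationic amino acid carrier SLC7A1 (1.03), and 1 of 2 probes of SLC38A2, a sodium-coupled neutral amino acid carrier (1.09 and 0.64). SLC3A2 and SLC7A5, the heavy and light chain of the CD98 leucine exchanger, lay slightly below 0, with -0.27 and -0.48 for SLC3A2 and -0.05 and -0.21 for SLC7A5. The glutamine carrier SLC1A5 had -0.90, the related SLC1A4 -0.94 and SLC38A10 -0.98.

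SLC7A6 and SLC7A6OS, a gene named for its position on the opposite strand of SLC7A6, lay far apart. SLC7A6 had signals of 8.33 and 8.15 in EV total RNA and 10.15 and 10.03 in the EV IP. For SLC7A6OS these were 10.19 and 10.22 in EV total RNA and 8.98 and 9.16 in the EV IP. The log2 IP/T was 1.85 and -1.13, respectively.

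Carriers of ions and acid-base equivalents showed 6 enriched and 3 depleted of 15 probes. Of the 8 probes of the sodium/proton exchanger family 3 were enriched and 2 depleted. SLC9A8 (1.86), of the Golgi, was among the enriched. SLC9A7 (-0.90, in 6 channels) and SLC9A9 (-1.43) lay on the other side. The potassium-chloride cotransporters SLC12A7 (0.29) and SLC12A4 (-0.52) did not pass.

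Vitamin, lipid and nucleoside carriers gave single enriched genes. Besides SLC19A2, the biotin and pantothenate carrier SLC5A6 was enriched by both probes (1.65 and 1.21, the latter below 2-fold with both normexp settings), whereas the folate carrier SLC19A1 had -0.82 and the riboflavin carrier SLC52A2 had -0.73. SLC29A3, a lysosomal nucleoside carrier, was enriched (1.22 and 0.97 in the orientations), and the carnitine carrier SLC22A5 had 0.84. The fatty acid transport proteins ranged from -0.95 (SLC27A2 and SLC27A5) to 1.84 (1 of 2 probes of SLC27A1). Also enriched were SLC10A3 (1.85), the lysosomal sialic acid exporter SLC17A5 (1.72, in 7 channels) and SLC61A1 (MFSD5), assigned to molybdate (1.84 and 1.68).

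The question whether mitochondrial carriers differ from those of the plasma membrane was addressed by the medians of both classes. They were close, 0.09 for SLC25 and -0.05 for 74 plasma membrane probes, of which 13 were enriched and 4 depleted. The order was not stable. In the first orientation the medians were -0.04 and 0.10, in the second 0.17 and -0.20, and over probes above background in 8 channels they were -0.09 and -0.05. The 56 probes of intracellular membranes had a median of -0.01, with 14 enriched and 3 depleted.

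Genes for other mitochondrial proteins had lower medians than SLC25. Subunits of oxidative phosphorylation (98 probes) had -0.20, with 7 enriched and 5 depleted, and mitochondrial ribosomal proteins (100 probes) had -0.38, with 5 enriched and 13 depleted. The classes also differed in brightness. Their median log2 signal in EV total RNA was 10.15 for SLC25, 14.03 for oxidative phosphorylation and 12.52 for mitochondrial ribosomal proteins. The differences in IP/T could not be tested with 1 sample per group, and whether they follow brightness was not tested.

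**Figure D2:**
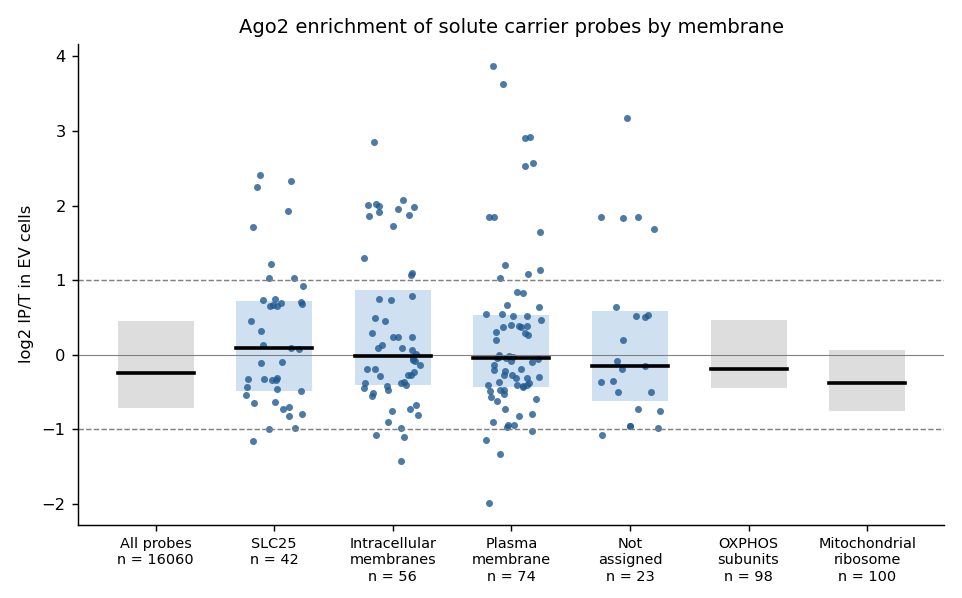
Log2 IP/T in EV cells (y axis) of member probes by the usual membrane of their family, with all probes and other mitochondrial genes for comparison (x axis, n probes). Points are probes, black lines medians, shaded boxes the 25th to 75th percentiles and dashed lines 2-fold. The medians lie between -0.38 and 0.09, while the lowest probes of the carrier classes lie between -1.98 and -1.08 and the highest between 2.41 and 3.87.

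Several probes were available for 37 genes, with 82 probes in all. The highest and lowest probe of a gene differed by a median of 0.38, in 24 genes by less than 0.5 and in 4 genes by more than 1. In SLC4A7, which had the widest spread, the highest probe was above background in 6 channels. In 27 genes all probes lay on the same side of 0.

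SLC2A8, an intracellular glucose transporter, was the single gene with 1 enriched probe and others below 0. That probe passed under 1 of the 4 scalings only (0.68 at the lowest), and the 4 include the deposited values. The probes of SLC2A8 had 1.07, -0.19 and -0.72, and the orientations of each lay on the same side (1.11 and 1.03, -0.17 and -0.21, -0.54 and -0.90). SLC27A1 had 1.84 and 0.20, and SLC67A2 (MFSD9) had 0.64 and -0.75. By contrast, the 2 probes of SLC11A2 differed by 0.04, those of SLC25A12 by 0.02 and the 4 of SLC25A5 by 0.10.

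**Figure D3:**
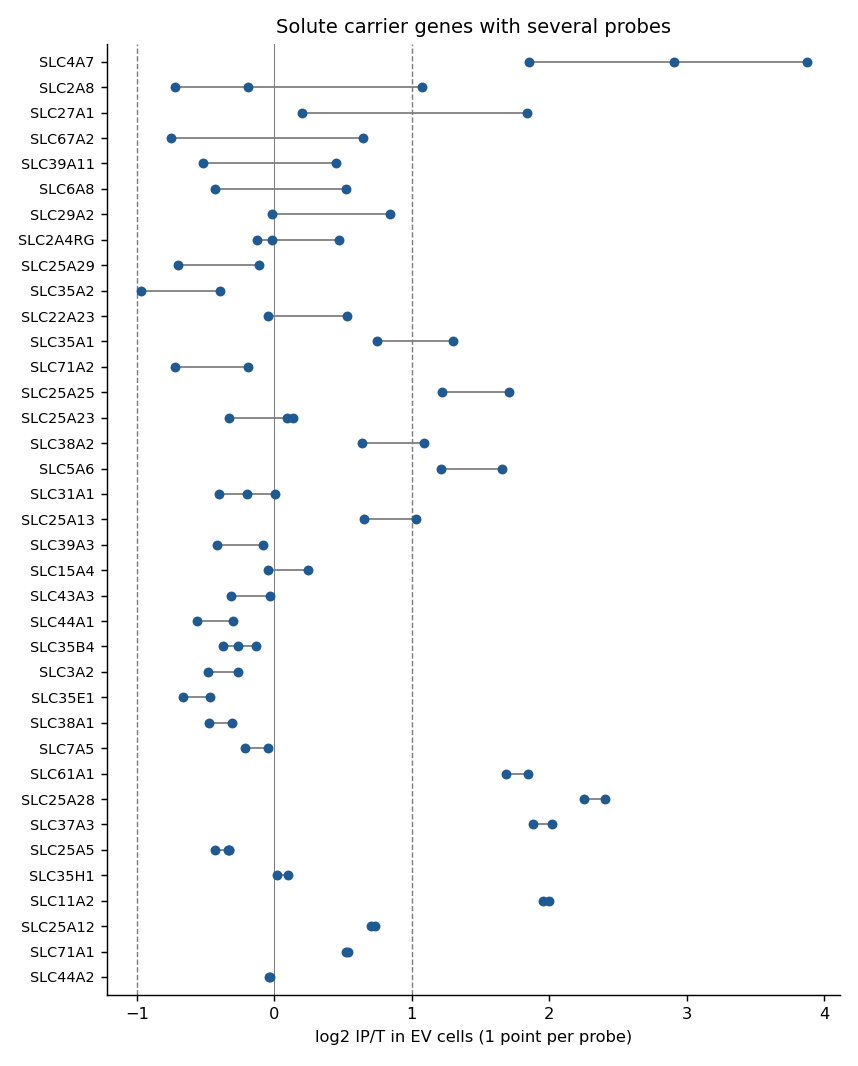
Log2 IP/T in EV cells (x axis) of each probe of the 37 member genes with several probes (y axis), ordered by the distance between the highest and the lowest probe. Each point is 1 probe and dashed lines mark 2-fold. SLC4A7, SLC2A8, SLC27A1 and SLC67A2 span more than 1.

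With the sponge 38 member probes (18.9%), for 31 genes, were enriched and 16 (7.96%), for 16 genes, depleted, compared to 16.0% and 13.9% of all probes. The 38 included 36 of the 40 found without it, and the 16 included 6 of those 10. Such overlaps were not counted over all probes. The enriched probes that fell short were 1 probe each of SLC25A25 (1.71 without and 0.77 with the sponge), SLC25A13 (1.03 and 0.78), SLC2A8 (1.07 and 0.88) and SLC7A1 (1.03 and 0.94). SLC25A32 (0.93 and 1.01) and SLC25A40 (0.74 and 1.00) passed in miR-155-sp cells alone. All but the first lay close to the threshold in both populations. Of the 10 probes depleted with the sponge alone, SLC12A4 (-0.52 without and -1.64 with it), SLC25A20 (-0.82 and -1.42), SLC2A5 (-0.94 and -1.51), SLC2A1 (-0.80 and -1.33), SLC27A2 (-0.95 and -1.41) and SLC25A4 (-0.79 and -1.22) differed most. In each of these the difference was larger by Cy5 than by Cy3. The others, SLC9A7, SLC16A1, SLC25A6 and SLC27A5, had between -1.01 and -1.08 with the sponge.

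The order of the carriers was thus much the same in both populations. The correlation between the populations was r = 0.967 across the 201 probes and r = 0.969 across all probes. Probes share arrays and slide and are no replicates. SLC4A7 (4.15), SLC49A4 (3.28), SLC19A2 (3.20), SLC4A7 by its second probe (3.07), SLC2A3 (2.96) and SLC48A1 (2.87) were the highest in miR-155-sp cells. SLC26A1 (-1.74) was again the lowest.

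**Figure D4:**
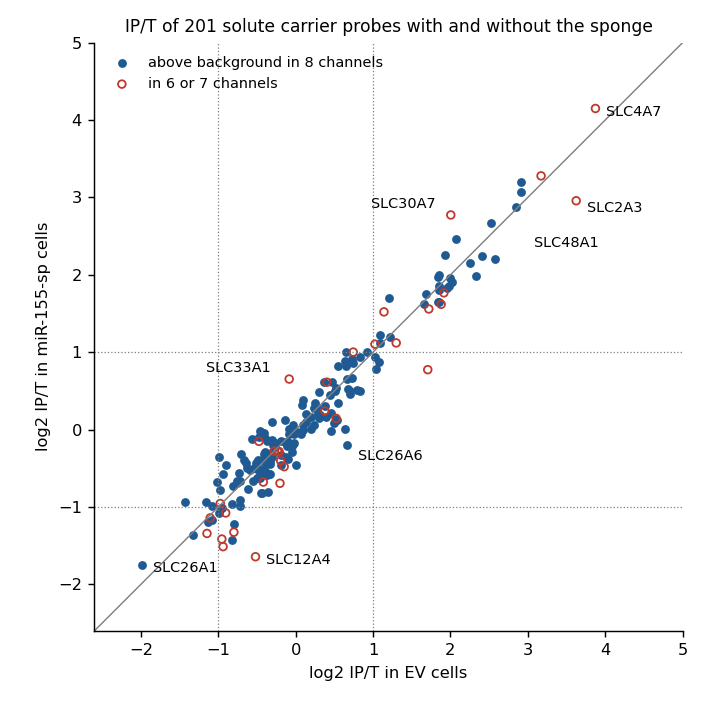
Log2 IP/T of the 201 member probes in EV cells (x axis) and miR-155-sp cells (y axis). Filled points are above background in all 8 channels, open points in 6 or 7, the line marks equal values and dotted lines mark 2-fold. The probes lie along the line (r = 0.967), and SLC12A4 (-0.52 in EV and -1.64 in miR-155-sp) lies farthest below it.

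The second comparison addresses which carrier mRNAs were less associated with Ago2 in cells with the sponge. The paper proposes that the sponge left part of the abundant miR-155 of these Hodgkin lymphoma lines free. Whether miR-155 bound a carrier mRNA was not tested. With the sponge the ratio was reduced to 0.5 of that in EV cells or less in 1 member probe (0.498%), compared to 0.218% of all probes. No member had a 2-fold higher ratio, compared to 0.38% of all probes. None of the 40 enriched probes had a 2-fold lower IP/T. This was not counted over all enriched probes, and such falls were rare among all probes, so it does not set the carriers apart. The median change of the members was -0.04, and it was -0.00 over all probes. A change of more than 0.5 in either direction was found in 11 members (5.47%) and in 7.96% of all probes.

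The probe past 2-fold was that of SLC12A4, a potassium-chloride cotransporter, which was not enriched in EV cells. Its log2 IP/T was -0.52 in EV and -1.64 in miR-155-sp cells, a change of -1.12 (-1.19 and -1.06 in the orientations). The signals in Cy3 were 7.93 and 7.93 in total RNA of EV and miR-155-sp cells and 6.59 and 6.69 in the IP. In Cy5 they were 7.14 and 8.30 in total RNA and 7.45 and 6.26 in the IP. The change was therefore 0.10 by the Cy3 signals alone and -2.35 by the Cy5 signals alone. It was also smaller with normexp (-0.26 and -0.54).

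This dependence on Cy5 applied to most of the larger changes. All 11 members with a change of more than 0.5 passed 0.5 by the Cy5 signals alone, and only 2, SLC25A25 (-0.51 by Cy3 and -1.35 by Cy5) and SLC30A7 (0.56 and 0.98), also by the Cy3 signals alone. Of the 11, 7 were above background in fewer than 8 channels, and these 2 probes were among the 7. The other probe of SLC25A25, above background in 8 channels, changed by -0.02. Over all members the median size of the change was 0.132 by Cy3 and 0.241 by Cy5, and over all probes 0.144 and 0.259. Changes by Cy3 and by Cy5 correlated at r = 0.12 across the 201 member probes and at r = 0.22 across all probes. A change of at least 0.5 in both dyes was found in 1.0% of the members and in 1.71% of all probes. Each dye orientation holds a Cy5 signal, so closeness of the orientations does not show that both dyes gave the change.

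**Figure D5:**
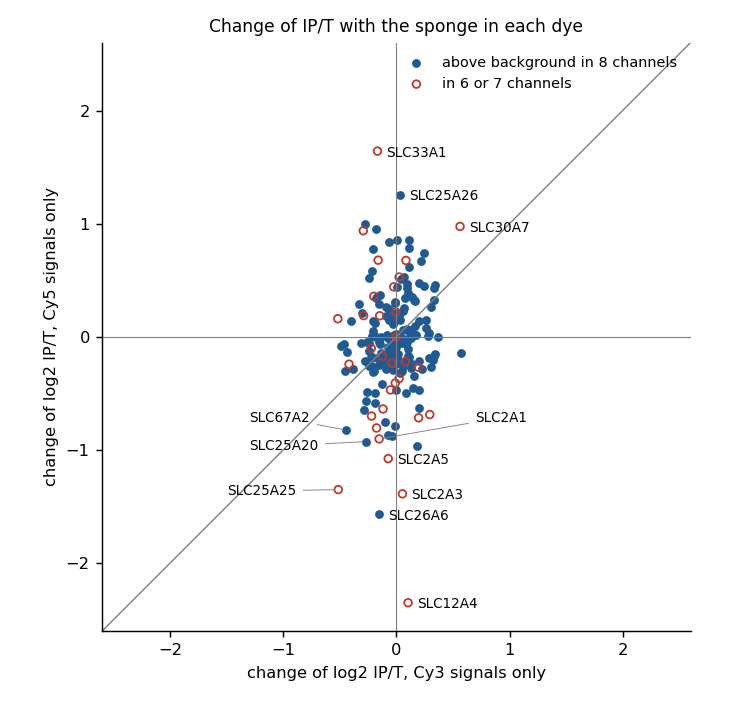
Change of log2 IP/T with the sponge (miR-155-sp minus EV) of the 201 member probes, from Cy3 signals only (x axis) and Cy5 signals only (y axis). Filled points are above background in 8 channels, open points in 6 or 7, and the diagonal marks equal changes. The probes spread far more along the Cy5 axis, and the named probes are the 11 with a mean change of more than 0.5.

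Among probes above background in 8 channels with the same sign in both orientations, the lowest changes were those of SLC26A6, a chloride, bicarbonate and oxalate exchanger (-0.86), SLC67A2 (-0.64), SLC25A20 (-0.60), SLC25A42 (-0.47), SLC31A1 (-0.46) and SLC50A1 (-0.46). SLC26A6 and SLC67A2 were moderately in excess in the IP of EV cells (0.66 and 0.64) and near 0 in miR-155-sp cells (-0.20 and 0.00). SLC67A2 had -0.45 by Cy3 and -0.82 by Cy5, the most even of the larger changes in these brighter probes, but its other probe had 0.06. The probes of SLC31A1 also went opposite ways, with -0.46, -0.49 and 0.36.

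The highest changes were those of SLC25A26 (0.64), SLC5A6 (0.49), SLC9A9 (0.48), SLC1A5 (0.45), SLC44A1, a choline carrier (0.44), and SLC6A10P, a pseudogene (0.43). SLC25A26 had signals of 9.51 and 9.54 in Cy3 total RNA of EV and miR-155-sp cells, 8.68 and 8.74 in the Cy3 IP, 9.72 and 9.35 in Cy5 total RNA and 8.56 and 9.45 in the Cy5 IP. Its change was 0.03 by Cy3 and 1.25 by Cy5. Of these 6, SLC5A6 was the single enriched gene, by a probe at 1.21 without and 1.70 with the sponge. Its other probe had 1.65 and 1.62.

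The IP/T of the most enriched carriers differed by less than 2-fold. SLC48A1 had 2.85 without and 2.87 with the sponge, SLC4A7 2.91 and 3.07, SLC19A2 2.92 and 3.20, SLC16A9 2.57 and 2.20, and SLC25A28 2.41 and 2.24. The lower value of SLC2A3 (3.63 and 2.96) was seen in the Cy5 signals (-1.39) and not in the Cy3 signals (0.05). SLC25A28 moved by -0.16, less than the median difference between the orientations.

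By class, the median change was -0.08 for SLC25, -0.04 for intracellular membranes and -0.03 for the plasma membrane. The change was below 0 in both orientations in 17 of 42 SLC25 probes (40.5%) and in 25 of 74 plasma membrane probes (33.8%), compared to 30.4% of all probes. It was above 0 in both in 28.6% and 31.1%, compared to 31.1% of all probes.

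In total RNA no member changed 2-fold between EV and miR-155-sp cells, compared to 0.181% of all probes lower and 0.0187% higher. The median change of the members was -0.00. In such bulk RNA, fewer cells expressing a gene and less RNA per cell cannot be told apart. A change of more than 0.5 was found in 6 members (2.99%) and in 4.23% of all probes.

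Among probes above background in 8 channels with the same sign in both dyes, the lowest value was that of SLC38A2. It and SLC38A1 encode sodium-coupled importers of glutamine and other neutral amino acids. For SLC38A2 the probe A_24_P295963 had 8.48 and 8.37 in EV total RNA and 7.87 and 7.54 in miR-155-sp total RNA, a change of -0.72 (-0.61 in Cy3 and -0.83 in Cy5). Its other probe had -0.28 (-0.40 and -0.17). The probes of SLC38A1 had -0.47 (-0.58 and -0.37) and -0.40 (-0.37 and -0.43). All 4 probes of these genes were thus lower in miR-155-sp cells in both dyes.

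For the same genes IP/T was slightly higher with the sponge, by 0.38 and 0.40 for SLC38A1 and by 0.25 and 0.03 for SLC38A2. SLC25A36 had comparable values, with -0.42 in total RNA (-0.41 and -0.43) and 0.33 in IP/T. Total RNA is the denominator of IP/T, so a lower total RNA alone raises the ratio. The IP signal changed by -0.09 for SLC25A36, by -0.02 and -0.07 for SLC38A1 and by -0.47 for the first probe of SLC38A2. By the ranking above, SLC31A1 (-0.50) and SLC25A29 (-0.38) were also among the 6 lowest probes in total RNA. Their dyes were unequal (-0.12 and -0.88, -0.17 and -0.59). The other probes of SLC31A1 had 0.19 and 0.09, and that of SLC25A29 had -0.04.

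The highest values in total RNA among the same probes were those of SLC26A6 (0.44), SLC10A3 (0.40), SLC25A42 (0.39), SLC25A44 (0.35), SLC67A2 (0.33) and the dicarboxylate carrier SLC25A10 (0.32). In Cy3 alone they lay between 0.02 (SLC26A6 and SLC25A10) and 0.22 (SLC67A2). The brightest members, SLC25A5 by its 4 probes, SLC25A3 and SLC35E4, changed by between -0.12 and 0.21. For the fuel and amino acid carriers the change in total RNA was 0.12 for SLC2A1, -0.07 for SLC2A3, 0.10 for SLC16A1, -0.25 for SLC1A5, -0.24 and -0.27 for SLC3A2, and -0.01 and -0.11 for SLC7A5.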

How the data were processed

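Total RNA and the Ago2-IP fraction of KM-H2 with EV or miR-155-sp were hybridized to 2-color Agilent arrays. The authors deposited processed spot intensity values from Agilent Feature Extraction, version 10.7.3.1 by the headers and 10.5.1.1 by the labels. The settings behind the processed signal are not given in the sources used here. The authors also deposited log2 values, which per the study's methods were quantile-normalized and filtered for detection and for agreement between labellings. These differed from the values computed here by a median of 0.00056 (at most 0.106). Per group there was 1 RNA sample in 2 labellings. No SD, p-value or model was computed.

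Control and outlier spots (74 to 100 gene spots per channel) were left out. Repeated spots were averaged per probe in log2, quantile-normalized over 8 channels and restricted to the 16065 probes of the deposited log2 table, of which 16060 had a value in every channel. Both labellings were averaged, and T was subtracted from IP. A ratio so made is relative to all probes, and overall differences between fractions are removed. Signals near background can compress or inflate ratios. Where a probe had several spots, a tie or majority of spots above background sufficed. Where single dyes are given, IP and T of the same dye come from different arrays.

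Symbols were taken from a RefSeq gene table (GRCh38.p14) through the array's transcript identifiers. Of 41000 probes 23958 had a name, and 11846 of the 16060. The array design used hg18, so no gene coordinates are given. Families were assigned a substrate and a usual membrane from textbook knowledge, with single genes as exceptions. Single members may lie elsewhere. The families renamed from MFSD and similar symbols, 3 non-transporters, SLC9D1, SLC38A10 and SLC41A3 were assigned after the names were seen.

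The members and gene lists were chosen with earlier results of these data known. Named genes were, among member probes above background in 8 channels, the 12 highest and 12 lowest IP/T in EV cells, the 6 largest rises and falls of IP/T and of total RNA with the same sign in both orientations or dyes, the 6 brightest in EV total RNA, the ADP/ATP carriers, SLC2A1, SLC2A3, SLC3A2, SLC7A5, SLC1A5, SLC16A1 and SLC16A3, and the extremes of SLC25, SLC35, SLC30 with SLC39 and amino acid carriers. Members past 2-fold in the change and genes with probes on both sides were added. The text states where others were chosen after their values were seen. Counts past 2-fold over all members are set beside the same counts over all probes, and those of single classes are described against the same shares.

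Alternatives were a common median, normexp (offset 50) followed either by loess and Aquantile or by quantile, the deposited log2 values, stricter or no filters, single labellings, single orientations and gene means. Analyses used Python 3.11.15, numpy 2.4.6, pandas 2.3.3, and limma 3.58.1 in R 4.3.3. The code was tested on simulated data.

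Some genes are not reported here by name, though they are included in the counts and medians.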

Additional observations from a re-analysis of the deposited data

Results flagged for a closer look

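In 2 members IP/T lay on opposite sides of 1 in EV and miR-155-sp cells in both dye orientations, a difference that was not tested. Such cases were not counted over all probes, so the number is no trait of the carriers. SLC26A6 had a log2 IP/T of 0.66 in EV and -0.20 in miR-155-sp cells, a change of -0.86, with -0.15 by the Cy3 signals alone and -1.57 by the Cy5 signals alone. SLC33A1, an acetyl-CoA carrier of the endoplasmic reticulum, had -0.08 and 0.65, a change of 0.74, with -0.17 by Cy3 and 1.64 by Cy5, from a probe above background in 7 channels. Further, 2 SLC probes outside the deposited values exceeded background in each of the 8 channels. They were a probe of the zinc importer SLC39A3 with a log2 IP/T in EV cells of -0.19 (0.37 and -0.76 in the orientations) and a probe of the taurine carrier SLC6A6 with -1.03 (-0.25 and -1.81).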

How the results depend on the processing

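No paired analysis was possible because the labellings that share a number are the same dye and each group holds 1 RNA. The deposited log2 values gave the same counts of members as the values computed here.

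Of members enriched and depleted in EV cells (40 and 10) there were 34 and 16 with a common median, 25 and 1 with normexp, loess and Aquantile, 24 and 1 with normexp and quantile, and 65 and 33 without filters on probes. In miR-155-sp cells (38 and 16) there were 23 and 0, 25 and 2, and 62 and 33 with the last 3 settings, and 9 depleted over probes above background in 8 channels. The member with a 2-fold lower IP/T was lost with both normexp settings, in 8 channels and with labellings within 1.5-fold (0 each), and there were 3 lower and 1 higher with IP in Cy3 alone. Without filters 21 members were lower and 25 higher in IP/T, and 14 lower and 2 higher in total RNA. Leaving out a labelling gave between 0 and 5 lower and between 0 and 2 higher in IP/T, and between 0 and 2 lower and between 0 and 1 higher in total RNA.

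The members' median log2 IP/T in EV cells (-0.05) was -0.16 with a common median, 0.090 and -0.0063 with normexp and loess or quantile, -0.033 without filters, -0.029 with IP in Cy5, -0.077 over genes, and -0.021 to 0.013 by single labellings. In miR-155-sp cells it was 0.071 with normexp and loess. That of SLC25 was -0.093 in EV and -0.21 in miR-155-sp cells in 8 channels. In miR-155-sp cells (0.09) it was 0.048 with a common median, -0.018 without filters, -0.0070 with IP in Cy5, -0.060 in the other orientation, -0.0074 over genes, and 0.13 to 0.14 by single labellings. That of plasma membrane carriers in miR-155-sp cells (-0.13) was 0.076 with normexp and loess, 0.021 without filters and 0.021 with IP in Cy5. The median change of IP/T (-0.04) was 0.023 with a common median, -0.010 with normexp and quantile, 0.0041 without filters and 0.0017 with IP in Cy5. The median change of total RNA (-0.00) was -0.037 with a common median, 0.0047 and -0.0065 with normexp and loess or quantile, 0.0055 with labellings within 1.5-fold, and -0.018 to -0.011 by single labellings. Among single probes 1 value reversed, the change of SLC12A4 (-1.12), which was 0.10 in Cy3 alone and -2.35 in Cy5 alone. The cause was not tested for these differences. Values near background, and the lower share of Cy5 spots above it, limit the dim probes.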
